A study of Mus musculus with 8 samples.

Results

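Kcnd2 and Kcnd3, which encode Kv4 potassium channels, and the genes of their auxiliary subunits, Kcnip1 to Kcnip4, Dpp6 and Dpp10, were followed in mouse hippocampus after status epilepticus, a prolonged seizure state. The 8 genes were taken by symbol from 20258 gene symbols, and stood on 17 of 29112 named rows, or 14 of 24921 RefSeq transcripts. They were chosen with earlier results of these data known, so their counts beside all transcripts are a description. Poly(A) RNA came from C57BL/6 mice in 4 groups, namely control tissue (time zero in the labels) and hippocampi taken 12 h, 10 d and 6 wk after status epilepticus was induced. Each group had 2 libraries, each a pool of cDNA from 2 animals, so single animals cannot be told apart. Neither the sex of the animals nor the way status epilepticus was induced is stated in the labels.

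Kv4 channels carry the fast, transient A-type potassium current of neuronal dendrites, which opens below the firing threshold and damps dendritic excitation and the backward spread of action potentials. The pore is made of Kcnd subunits. KChIPs, the EF-hand calcium sensors encoded by the Kcnip genes, bind inside the cell, bring channels to the surface and slow their inactivation, while DPP6 and DPP10, membrane proteins related to dipeptidyl peptidases but without enzyme activity, speed their gating. In the hippocampus Kcnd2 is the main gene of pyramidal cell dendrites, and Kcnd3 is also used by interneurons and granule cells.

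The sequences that bear on the complex were read first. The microRNA miR-324-5p has been reported to target Kcnd2 in mouse hippocampus, and the base run that pairs with its seed (bases 2 to 8) occurs once in the 3′ UTR of Kcnd2. It occurs in none of the 3′ UTRs of the other 7 genes (longest per gene in GENCODE vM1). The mature sequence comes from RefSeq and lies on chromosome 11 (mm9 69825562 to 69825584). It and the Kcnd2 stretch (mm9, chr6:21677986-21678008, plus strand, transcript Kcnd2-001) are shown 5′ to 3′, with the seed and its match in capitals.
miR-324-5p: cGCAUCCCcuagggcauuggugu
Kcnd2 3′ UTR: acagtgtttctcatgGGGATGCa
The match begins at base 659 of a 3′ UTR of 2463 bases. The 7 letters GGGATGC, searched on the mRNA strand, occurred in 7.31% of 19915 3′ UTRs and in 13.9% of the 2608 with 1971 to 3077 bases, lengths near that of Kcnd2.

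Kcnip3 was the member with a rise at all 3 times. Its 2 transcripts begin at different starts but overlap, so a rise from each start is not shown. The 250 bases before each start are printed from the mm9 genome (minus strand, chr2:127347107-127347356 for NM_019789 and chr2:127308236-127308485 for NM_001111331).
NM_019789: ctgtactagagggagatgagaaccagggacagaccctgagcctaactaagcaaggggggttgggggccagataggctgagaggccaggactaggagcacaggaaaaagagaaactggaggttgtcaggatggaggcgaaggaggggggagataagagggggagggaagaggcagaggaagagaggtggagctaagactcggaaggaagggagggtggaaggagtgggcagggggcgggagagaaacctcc
NM_001111331: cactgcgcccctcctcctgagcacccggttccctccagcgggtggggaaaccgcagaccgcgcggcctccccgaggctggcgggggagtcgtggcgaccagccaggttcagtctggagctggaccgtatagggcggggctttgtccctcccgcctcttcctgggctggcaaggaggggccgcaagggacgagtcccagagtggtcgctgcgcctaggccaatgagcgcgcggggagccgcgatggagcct
No capitals stand in them because none of the motifs searched was found. These were the cAMP response element TGACGTCA, its shorter form TGACG, the AP-1 site TGACTCA or TGAGTCA, and the EGR site GCGGGGGCG or GCGTGGGCG, on both strands; every full element also counts as the shorter form. The GC content was 58.8% before NM_019789 and 71.2% before NM_001111331, against a median of 56.4% over 21818 starts. Over the 12 distinct starts of the 8 genes, the shorter form stood before 1, Kcnd3 NM_019931, and the other motifs before 0. A missing match says only that these letters are not in the window. Among 21821 starts in the table, 21.3% held the shorter form, 2.12% the full element, 3.95% the AP-1 site and 4.73% an EGR site.

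For mRNA, the deposited values set each time against control as the authors computed it: an average signed fold, negative for a fall, with an average q-value. No level per library was used, so no SD stands beside a fold, the depth behind it is unknown, and whether a large fold rests on low counts was not checked. The column names call both values averages, and how the q-values were computed is unstated, so it is not known whether they take the spread between libraries into account. A transcript was said to rise or fall if the average q was below 0.05 and the average fold had a size of 1 or more. In these bulk samples fewer cells of a type and less RNA per cell cannot be told apart.

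The complex changed unevenly, with more rises at 12 h and more falls later. In the authors' deposited table, 6 of the 14 transcripts rose and 3 fell at 12 h, where 10.8% of all 21221 transcripts with a fold rose and 7.73% fell (18.5% together). At 10 d, 2 rose and 7 fell in the authors' deposited table, against 8.30% rising and 11.8% falling (20.1% together) of 21692. At 6 wk the numbers were again 2 and 7 in the authors' deposited table, against 10.0% and 12.4% (22.5% together) of 20106. In the authors' deposited table, transcripts passing on q with an average fold under 1 in size, called mixed here, numbered 0, 0 and 1 among the 14, and made up 4.59%, 3.84% and 3.95% of all transcripts at 12 h, 10 d and 6 wk. The shares and medians over all transcripts or genes were not limited to detected ones. They keep many unrelated transcripts that have the same small fold and the same high q. Shares among detected transcripts alone were not computed and may be higher, so the contrast with the 14 may be overstated.

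Transcripts of a gene overlap in the genome and some have the same fold and q, so these counts are not independent. Kcnip2 and Dpp6, with 3 transcripts each, made up most of the falls at 10 d and 6 wk. By the first row of each gene in the authors' deposited table, 4 of 8 genes rose and 1 fell at 12 h, where 10.2% of all genes rose and 7.48% fell (17.6% together). At 10 d 1 gene rose and 3 fell in the authors' deposited table, against 7.85% and 11.3% (19.1% together), and at 6 wk 1 rose and 3 fell, against 9.63% and 12.0% (21.6% together). Mixed values in the authors' deposited table came to 0, 0 and 1 of the 8 genes, and to 4.28%, 3.59% and 3.73% of all genes. The median average fold of the 14 transcripts in the authors' deposited table was 1.18 at 12 h, then -2.12 and -1.48, beside 0.53, 0.59 and -0.64 over all transcripts with a fold. By the first row of each of the 8 genes the median was 1.24, -1.75 and -0.7, beside 0.56, 0.69 and -0.74 over all genes. At 6 wk the median by gene was thus near that of all genes. The 3 comparisons share their control libraries.

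**Figure D1:**
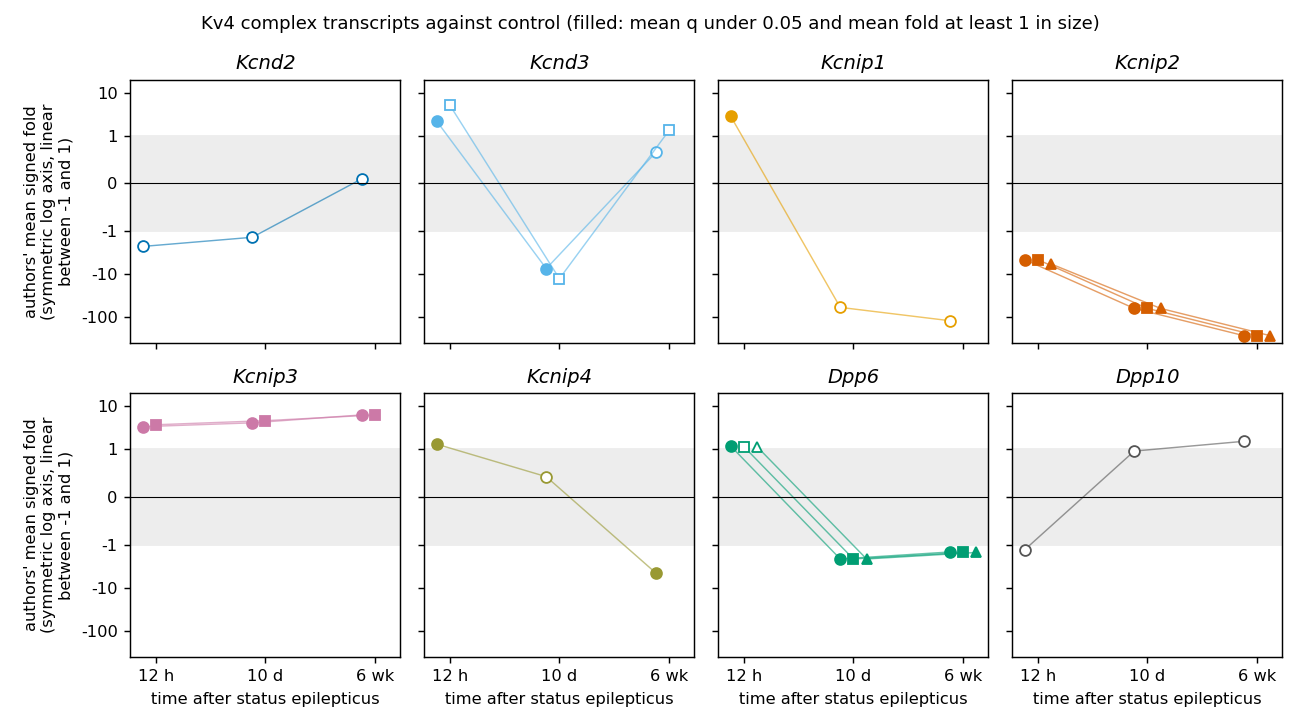
Authors' average signed fold against control (y, symmetric log axis, linear between -1 and 1 in the grey band) at each time (x), 1 panel per gene and 1 symbol shape per RefSeq transcript, filled where the transcript was called. Kcnip2 falls at every time and reaches -269 at 6 wk, Kcnip3 lies above 3 at every time, and Kcnd3 NM_001039347 stands at 2.19, -7.40 and 0.65.

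The pore genes came first. Kcnd2 (NM_019697, chromosome 6, 21166109 to 21679805 on mm9) was not called at any time. Its average fold in the authors' deposited table was -2.26 at 12 h (average q 0.174), -1.38 at 10 d (average q 0.147) and 0.10 at 6 wk (average q 0.00168). At 6 wk it passed on q with a fold close to 0, which gives no direction.

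Kcnd3 changed direction between 12 h and 10 d. Its longer transcript, NM_001039347 (chromosome 3, 105255248 to 105476920 on mm9), rose at 12 h with an average fold of 2.19 (average q 6.56e-11) and fell at 10 d to -7.40 (average q 3.80e-15) in the authors' deposited table. At 6 wk it stood at 0.65 (average q 0.166) in the authors' deposited table and was not called. The shorter transcript, NM_019931 (105261734 to 105472127), had folds of the same sign and larger size at 12 h and 10 d, 5.15 and -12.7, but average q of 0.201 and 0.425 in the authors' deposited table, and 1.32 (average q 0.471) at 6 wk. The calls on Kcnd3 therefore rest on its longer transcript.

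The KChIP genes moved apart from each other. Kcnip2, whose product is a main KChIP of heart and of hippocampal pyramidal cells, fell at all 3 times. Its 3 transcripts (chromosome 19, 45868160 to 45890293 on mm9) shared values except at 12 h, where NM_145704 had an average fold of -5.75 (average q 1.95e-15) and both NM_145703 and NM_030716 had -4.58 (average q 5.09e-14) in the authors' deposited table. The fold was -62.3 (average q 8.66e-16) at 10 d and -269 (average q 9.82e-16) at 6 wk in the authors' deposited table. These last q-values are the lowest in the table at 10 d and 6 wk, where 328 and 349 transcripts have them. A larger fold in size was held by 2.50% of transcripts at 10 d and by 0.0249% at 6 wk. The counts behind folds of that size were not used here.

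Kcnip3 rose at all 3 times. It encodes calsenilin, also called DREAM, which acts as a KChIP at the membrane and as a calcium-sensitive transcriptional repressor in the nucleus. NM_001111331 (chromosome 2, 127282234 to 127308235 on mm9) had average folds of 3.37, 4.14 and 6.33 at the 3 times in the authors' deposited table. NM_019789, which begins farther upstream at 127347106, had 3.73, 4.65 and 6.32 in the authors' deposited table. Average q was 1.21e-15 at 12 h and 9.82e-16 at 6 wk for both, the lowest value at each of those times, and 0.00257 and 0.00246 at 10 d in the authors' deposited table. The folds of these overlapping transcripts lay close together at each time, while Kcnip2 and Kcnip3 had opposite signs at all 3.

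Kcnip1, whose product is enriched in GABAergic interneurons, rose at 12 h with an average fold of 2.85 (average q 0.00349) in the authors' deposited table (NM_027398, chromosome 11, 33529780 to 33743527 on mm9). At 10 d and 6 wk it stood at -59.0 (average q 0.227) and -121 (average q 0.0634) in the authors' deposited table. These folds are among the larger ones, with 2.82% and 0.582% of transcripts beyond them in size, but neither passed. Kcnip4, a KChIP with splice forms that differ in their effect on inactivation, rose at 12 h with 1.32 (average q 0.0193) and fell at 6 wk with -4.51 (average q 7.83e-06) in the authors' deposited table (NM_030265, chromosome 5, 48780742 to 49280796 on mm9). The 12 h call is lost if the average q must be under 0.01 or the average fold at least 2. Between these times Kcnip4 stood at 0.43 (average q 0.209) at 10 d in the authors' deposited table.

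The peptidase-like subunits differed in whether they were called. All 3 Dpp6 transcripts fell at 10 d, with average folds of -2.12 and average q of 1.30e-14 to 1.36e-14, and at 6 wk, with average folds of -1.46 to -1.50 and average q of 1.19e-07 to 8.39e-07, in the authors' deposited table. At 12 h the transcript that starts farthest downstream, NM_001136060 (chromosome 5, 27588475 to 28054040 on mm9), rose with 1.20 (average q 0.0293), while NM_010075 and NM_207282 had 1.16 and 1.16 with average q of 0.154 and 0.155 in the authors' deposited table. The folds of Dpp6 were smaller than the median size of called transcripts in the authors' deposited table, which was 4.61, 6.03 and 5.85 at the 3 times. Dpp10 (NM_199021, chromosome 1, 125228716 to 125942136 on mm9) was not called at any time, at -1.30 (average q 0.342), 0.96 (average q 0.377) and 1.54 (average q 0.340) in the authors' deposited table. The 12 h and 6 wk calls of Dpp6 are lost if the average fold must be at least 2, and the 12 h call if the average q must be under 0.01. Whether Dpp6 and Dpp10 differ from each other was not tested.

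**Figure D2:**
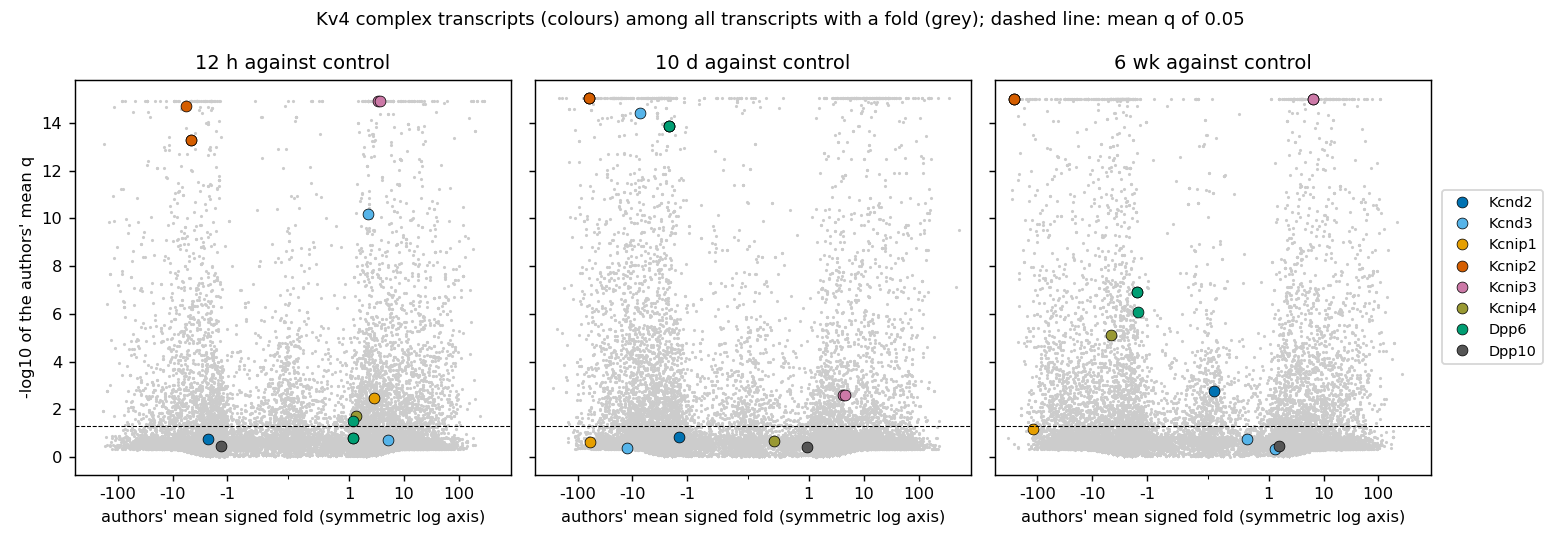
Minus log10 of the authors' average q (y) against their average signed fold (x, symmetric log axis) for all transcripts with a fold (grey) and those of the 8 genes (colours), 1 panel per time, with the dashed line at an average q of 0.05. Kcnip2 lies at the top left at 10 d and 6 wk, Kcnip3 at the top right at 12 h and 6 wk, and Kcnd2 lies near a fold of 0 above the line at 6 wk.

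Genes of other A-type channels, Kv beta and KCNE subunits, and of known Kv4 partners and kinases formed a list of 30 symbols, 29 of them found. In the authors' deposited table, 2 rose and 4 fell of 28 with a fold at 12 h, 4 rose and 7 fell of 28 at 10 d, and 1 rose and 8 fell of 29 at 6 wk. A further 5, 6 and 5 were mixed in the authors' deposited table. Over all genes 10.2%, 7.85% and 9.63% rose and 7.48%, 11.3% and 12.0% fell, so the 12 h count of the list, 6 of 28 beside 17.6% of all genes, is near the background. The median over the list was 0.04, -0.38 and -0.72 at the 3 times in the authors' deposited table, beside 0.56, 0.69 and -0.74 over all genes. Kcnab2, a Kv beta subunit of Kv1 channels, fell at all 3 times, with -1.48 (average q 1.80e-07), -3.17 (average q 8.66e-16) and -2.10 (average q 3.07e-14) in the authors' deposited table. Camk2b, a subunit of the calcium and calmodulin-dependent kinase, did so too, with -1.40 (average q 8.36e-15), -2.27 (average q 8.66e-16) and -2.09 (average q 9.82e-16) in the authors' deposited table. Flna, the actin-binding filamin that anchors Kcnd2 channels, rose at 10 d and 6 wk with 3.73 (average q 4.59e-10) and 4.60 (average q 1.56e-07) in the authors' deposited table. Hpca, the neuronal calcium sensor hippocalcin, fell at 12 h with -1.24 (average q 0.00142) and at 6 wk with -5.37 (average q 9.82e-16) in the authors' deposited table. At 10 d it was mixed, with -0.73 (average q 8.66e-16) in the authors' deposited table. Kcnd1, the remaining Kv4 gene of the mouse, was not called at any time. It had -42.2 (average q 0.446), -12.8 (average q 0.418) and -1.59 (average q 0.170) in the authors' deposited table.

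Markers of neurons and glia moved in the same comparisons, in which 17.6%, 19.1% and 21.6% of all genes were called at 12 h, 10 d and 6 wk (10.2%, 7.85% and 9.63% up, 7.48%, 11.3% and 12.0% down). Of 11 general neuronal markers found, 2 rose and 3 fell at 12 h, 0 rose and 2 fell at 10 d, and 0 rose and 7 fell at 6 wk, with median average folds of 0.22, -0.14 and -1.66 in the authors' deposited table. Granule neuron markers gave 1, 6 and 2 falls of 10 and 0 rises, among the falls Prox1 at -4.51 (average q 1.22e-15) at 10 d in the authors' deposited table. Of 12 pyramidal neuron markers, 1, 2 and 1 rose and 1, 4 and 4 fell in the authors' deposited table at the successive times. Of 15 interneuron markers, 1, 1 and 2 rose and 1, 5 and 6 fell, among the falls Gad2, which makes GABA, at -4.23 (average q 4.57e-06) at 10 d in the authors' deposited table. Astrocyte markers gave 2, 5 and 4 rises and 0, 0 and 1 falls of 12, microglial markers 1, 5 and 4 rises and 1, 1 and 0 falls of 12, and oligodendrocyte markers 2, 3 and 2 rises and 3, 1 and 2 falls of 12, all by the authors' deposited table. Mixed values in the authors' deposited table were held by 2, 5 and 2 of the general neuronal markers, 0, 1 and 0 of the granule, 2, 2 and 1 of the pyramidal and 0, 0 and 1 of the interneuron markers. Among glia they were held by 1, 3 and 1 of the astrocyte, 1, 0 and 1 of the microglial and 1, 1 and 2 of the oligodendrocyte markers in the authors' deposited table. The part of these shifts in the falls of Kcnip2, Kcnd3, Kcnip4 and Dpp6 was not tested. Nor was their part in the rises of Kcnip3.

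**Figure D3:**
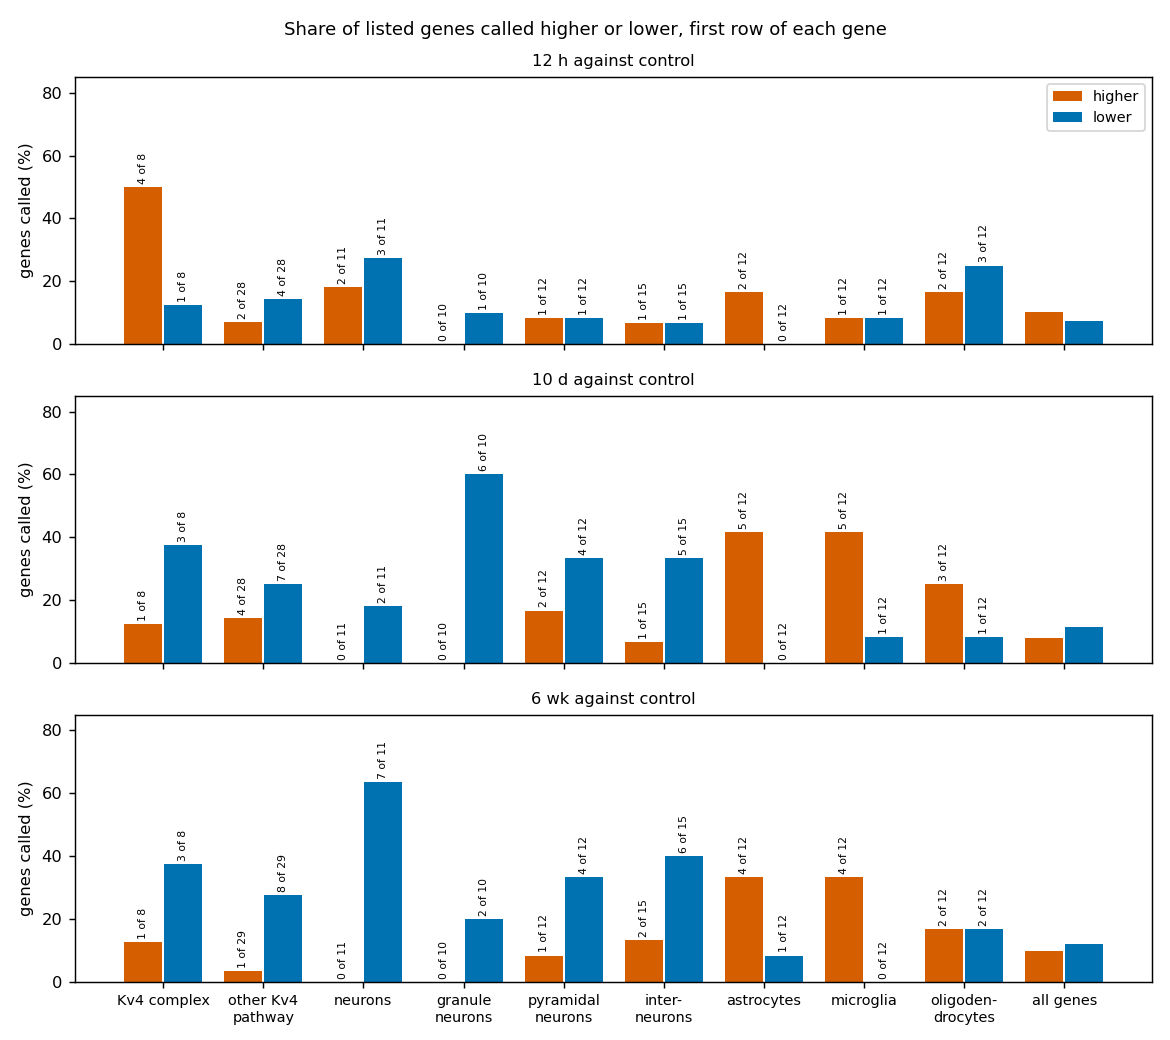
Share of genes called higher (orange) or lower (blue) in percent (y) for the 8 Kv4 complex genes, the other pathway genes, markers of 7 cell classes and all genes (x), 1 panel per time, with counts over the bars and each gene taken by its first row. For the Kv4 complex 4 of 8 genes are higher at 12 h and 3 of 8 lower at 10 d and 6 wk, and for general neuronal markers 7 of 11 are lower at 6 wk.

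The genes with patterns nearest to the pore genes were found by the distance between signed log2 values of 1 plus the fold size over the 3 times, among 15449 genes with a fold at each. Kbtbd11 was nearest to Kcnd2, at a distance of 0.096, with folds of -2.37, -1.48 and 0.05 in the authors' deposited table. Its average q was 3.6e-10, 0.0554 and 9.11e-07. Pcdh9 (0.164) and Thumpd3 (0.180) followed. Rabggtb was nearest to Kcnd3, at a distance of 0.138, with folds of 2.02, -8.04 and 0.60 in the authors' deposited table. Its average q was 0.161, 0.0166 and 0.259. Podxl2 (0.282) and Trhde (0.288) followed. The distance does not use q. At 12 h Kbtbd11 was called where Kcnd2 was not, and Kcnd3 was called where Rabggtb was not. At 10 d and 6 wk the calls within each pair were the same. The distances rest on 3 values per gene from comparisons that share controls, and are a description.

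miR-324-5p, whose sequence and Kcnd2 match are printed above, was measured in 8 small RNA libraries, 2 per group, with 545672 to 3325374 tags matching miRNAs. The labels do not say that these libraries came from separate pools, so p-values measure only the spread between them. Control libraries 7 and 8 had 135 and 144 CPM, libraries 1 and 2 at 12 h had 129 and 127, libraries 3 and 4 at 10 d had 110 and 125, and libraries 5 and 6 at 6 wk had 120 and 133. In these CPM values, which are scaled by TMM, every library after status epilepticus was below both controls, by a small margin. This order depends on the scaling. As plain shares of tags, library 4 (72 of 545672) and library 6 (256 of 1870259) exceeded both controls (139 of 1106436 and 217 of 1649297). Counts behind the CPM values ran from 72 tags (exact Poisson 95% interval 56.3 to 90.7) in library 4 to 427 (387 to 469) in library 2, intervals that cover counting error only. Against 140 ± 6.41 CPM in controls (SD, n = 2), the mean was 128 ± 1.31 at 12 h, 117 ± 10.5 at 10 d and 126 ± 9.63 at 6 wk. The log2 fold was -0.13 (95% interval -0.49 to 0.24) at 12 h, -0.26 (-0.63 to 0.11) at 10 d and -0.14 (-0.51 to 0.22) at 6 wk. None passed edgeR's quasi-likelihood test, with Benjamini-Hochberg adjusted p of 0.696, 0.416 and 0.599 over 422 miRNAs, of which 0.474%, 0.948% and 10.4% were called at the 3 times. The intervals leave room for changes up to those bounds, so a constant level is not shown.

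**Figure D4:**
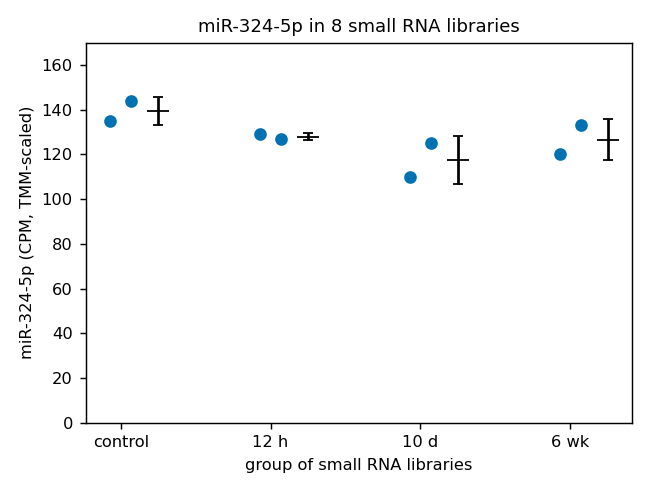
miR-324-5p in CPM scaled by TMM (y) in the control, 12 h, 10 d and 6 wk small RNA libraries (x), with 1 point per library and the bar at the mean and SD of 2 libraries. The controls sit at 135 and 144 and the later libraries between 110 and 133.

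Regions named for CREB, the activity-dependent transcription factor that binds the cAMP response element, were listed by the authors beside the small RNA tag regions. One region overlapped a gene of the complex, Kcnd2 (mm9, chromosome 6, 21677972 to 21678586, 615 bases, height 9 on an unstated scale), and stood in 2 of the 3 lists. It lies within the 3′ UTR in the last exon, far from the gene's start, and holds the miR-324-5p match. The regions on the rows of Kcnip3 lay 197735 and 198987 bases from that gene. The deposited offsets matched the distance to the tag region on each of these rows, and the distance to the gene only where both were 0. No region thus stood at the start of any of the 8 genes on these rows.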

How the data were processed

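Bowtie, run with defaults on mm9, aligned the reads of 8 poly(A) libraries, and those with a single place inside RefSeq exons were kept, per the labels' design text. The authors deposited for each transcript and time a mean signed fold, treated as a score since falls are negative, and a mean q-value. Their formula and scaling are unstated. Of the folds other than 0, 26.9% fell within 0.02 of a whole number of millionths, and 100% did when taken 4 times, as averages of 4 values with 6 decimals would. What the 4 values were is unstated, and the q-values were not checked in this way. For miRNAs, the deposited tag counts of the small RNA libraries, per the file headers, were used with 1 row per name. The time written in each column's name gave its group. A further 24 columns of values per library were not used. Folds and q-values at times before 12 h were also deposited, have no samples in the labels, and were not used. The height of CREB-named regions is a score deposited by the authors.

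Of 29208 rows, 96 named no gene. Repeats of a transcript were dropped, the first row being kept (23 of 1741 repeated transcripts had rows that differ, none of them a member). Transcripts listed at a fold of 0 (3700, 3229 and 4815 at 12 h, 10 d and 6 wk) were left out of the shares, and no other filter for detection was applied. Gene starts in the table were taken to count from 0 and were raised by 1. The genome was NCBIM37, the build also called mm9, with GENCODE vM1 annotation. Sequences came from that genome and its transcripts, and the mature miRNA from RefSeq (GRCm38.p6). miRNAs were tested with edgeR 4.0.16 in R 4.3.3 (TMM, filterByExpr, quasi-likelihood, two-sided, 8 libraries in 1 fit) after a test on simulated data. DESeq2 1.42.0, its size factors, no filter and left-out libraries were the alternatives. No counts per library were used for mRNA, so no test of it was made. Genes were named by a rule that took all members, called list genes with low mean q and the 3 nearest patterns; Kcnd1 and the genes called at several times were picked from the list after their values were seen. The members and lists were chosen with earlier results of these data known.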

Additional observations from a re-analysis of the deposited data

How the results depend on the processing

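Counting genes by their first row gave 5 called at 12 h, 4 at 10 d and 4 at 6 wk in place of 9 transcripts each time, and by the row with the lowest mean q 4 at 10 d and 4 at 6 wk, since there are 8 genes and 14 transcripts. The other alternatives for the mRNA counts gave 6 to 10 transcripts or genes. At 12 h the calls of Kcnip4 and of Dpp6 were lost with a mean q under 0.01 or a mean fold of at least 2 (7 transcripts left), and at 6 wk those of Dpp6 were lost with a mean fold of at least 2 (6 left). For miR-324-5p no alternative passed the threshold, and the log2 fold stayed negative in each, from -0.19 to -0.04 at 12 h (adjusted p 0.669 to 1), -0.33 to -0.17 at 10 d (0.434 to 0.851) and -0.21 to -0.09 at 6 wk (0.569 to 0.867). Leaving out 1 library at a time gave -0.19 to -0.07, -0.33 to -0.17 and -0.21 to -0.09. No paired analysis was possible because the library numbers in the column names are not shared between groups and the mRNA values are the authors' comparisons.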
